A study of Mus musculus with 11 samples.

Results

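The genes described here are 9 of the 25121 in the deposited table: the inhibitor of differentiation genes Id1, Id2 and Id3, the ligand gene Bmp2, the pseudoreceptor gene Bambi, the receptor genes Notch1 and Notch2, and the Notch target genes Hes1 and Hey1. They were matched by gene symbol and chosen by their expression differences between the same treatments, since earlier results on these libraries were known. Those differences are therefore a description: no p-value is given for them, and counts past a threshold stand only beside the share of all genes. All 9 passed the filter on low counts.

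The cells sequenced were macrophages raised from mouse bone marrow and kept in the upper chamber of a Transwell, a porous insert, with primary epithelium of the renal proximal tubule below. All cultures were treated for 72 h with 5 ng/mL TGF-β1, transforming growth factor β1, as a profibrotic stimulus. The control group of 6 libraries (replicates 1 to 6) had nothing more, while 5 others (replicates 2 to 6) also had hemin, a chloride of oxidised heme, at 10 µM. No group lacked TGF-β1 or the epithelial cells, so a direct action of hemin on the macrophages and one through the epithelium cannot be told apart. The labels used here give neither strain nor sex nor age of the mice. The labels do not say whether each library had its own animal or culture. The p-values thus reflect how these samples vary, and that variation may be technical.

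ID proteins are helix-loop-helix factors that lack a DNA-binding region. They bind E proteins, the common partners of lineage factors, and keep them off DNA. The genes are classic direct targets of bone morphogenetic protein (BMP) signalling, in which a ligand such as BMP2 activates SMAD1 and SMAD5, and TGF-β can also act on them. BAMBI resembles a type I receptor but has no kinase and dampens BMP and TGF-β signals. Notch receptors are cut after contact with a ligand on a neighbouring cell, and the freed intracellular part joins the DNA-binding protein RBPJ to switch on HES and HEY repressors. Macrophages use both pathways in differentiation and inflammation.

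Depth was 65.5 to 71.5 M counts in the controls and 66.7 to 96.6 M in the hemin libraries. Libraries are compared in CPM, counts scaled to library size after TMM normalization, and genes in the deposited FPKM, which is also scaled to transcript length. Values after ± are SD (controls n = 6, hemin n = 5). Log2 fold changes are hemin over TGF-β1 alone, and their intervals cover 95%. Among macrophage markers 12 of 12 averaged at least 1 FPKM, and their summed FPKM was 5705 to 7867 with TGF-β1 alone and 6292 to 7473 with hemin. At an edgeR adjusted p under 0.05, 4 of them were higher with hemin, where 8.43% of all tested genes were. They were Adgre1, Cd68, Cd14 and Ptprc, by 0.17, 0.33, 0.22 and 0.28 on the log2 scale, and the other 8 did not pass. Of the proximal tubule markers Lrp2, Cubn, Slc5a2, Aqp1, Hnf4a, Pax8 and Epcam averaged under 0.1 FPKM. The summed level of 12 such markers was 7.76 to 15.7 and 4.14 to 14.9 FPKM. Cdh1, the E-cadherin gene, was highest among them in the controls (5.39 ± 0.766 FPKM) and fell to 1.95 ± 0.431 FPKM (edgeR adjusted p = 1.77e-06), while Havcr1 was highest with hemin (2.23 ± 1.03 and 4.29 ± 2.38 FPKM). The 9 fibroblast markers with values summed to 39.4 to 96.0 and 31.0 to 55.2 FPKM. Acta2 (27.8 ± 9.18 and 25.2 ± 6.07 FPKM) and Col1a1 (22.7 ± 9.72 and 12.9 ± 3.14 FPKM) carried most of that sum, and Pdgfra and Dcn were under 0.1 FPKM. The 8 endothelial markers summed to 3.33 to 5.08 and 3.37 to 4.46 FPKM. Of 8 marker lists none differed in mean log2(FPKM + 1) between groups by a 2-sided exact permutation test over 462 splits (smallest adjusted p = 0.104, osteoclast markers). With log2(FPKM + 0.1) the endothelial (-0.22) and osteoclast (0.19) lists passed the same exact permutation test, as did the osteoclast list without hemin replicate 3. Of 6 tested osteoclast markers only Ctsk, the cathepsin K gene, passed in edgeR, where 14.2% of all tested genes did. It rose from 7.97 ± 1.29 to 17.0 ± 3.16 CPM (edgeR adjusted p = 2.83e-05). The 5 that did not pass included Atp6v0d2, the most abundant in FPKM, at 217 ± 15.1 and 235 ± 36.9 CPM.

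In FPKM the ID genes stood far above the rest. With TGF-β1 alone the order was Id1 at 139 ± 8.59, Id2 at 80.6 ± 4.94, Id3 at 44.0 ± 2.93, Notch1 at 7.09 ± 1.34, Notch2 at 3.95 ± 0.691, Bambi at 3.26 ± 0.233, Hes1 at 2.38 ± 0.255, Bmp2 at 0.730 ± 0.0888 and Hey1 at 0.323 ± 0.114 FPKM. Library ranges of neighbours in that order overlapped for Notch2 and Bambi alone. The same order of means was found with hemin, where Hes1 (0.719 ± 0.518 FPKM) overlapped with Bmp2 (0.319 ± 0.0736 FPKM), and Bmp2 with Hey1 (0.268 ± 0.0343 FPKM).

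Across the 9 genes, 4 were lower and 1 higher with hemin at an edgeR adjusted p under 0.05, a threshold that 14.2% of the 15132 tested genes passed (5.75% lower and 8.43% higher). The split over all genes moved with the scaling: edgeR called 1276 higher and 870 lower, and limma on log2(FPKM + 1) without further scaling 759 higher and 2136 lower. The lower genes were Id1, Id3, Bmp2 and Hes1, and the higher gene was Notch1. In these 5 the groups did not overlap in CPM, as for 10.2% of all tested genes. Id2, Bambi, Hey1 and Notch2 overlapped between groups. Since the genes were chosen with this contrast known, nothing is read from these shares. In bulk RNA, fewer cells of a type and less RNA per cell cannot be told apart.

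**Figure D1:**
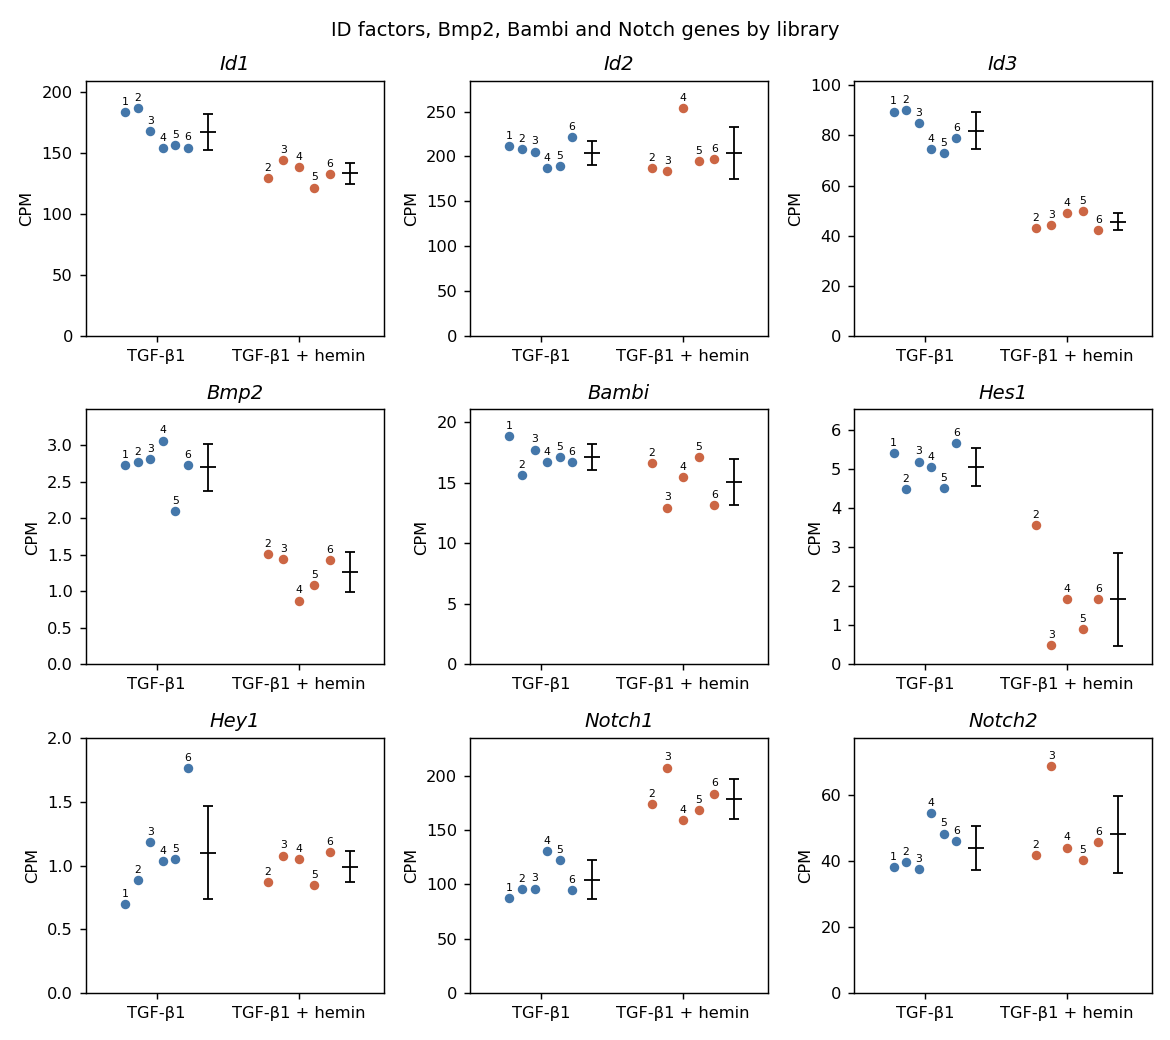
Level of each gene in every library in CPM after TMM normalization (y axis, from 0), with TGF-β1 alone in blue and TGF-β1 with hemin in orange. Small digits are replicate numbers, and the black mark and bar to the right are the mean ± SD. Id1, Id3, Bmp2, Hes1 and Notch1 show no overlap between groups, and hemin replicate 2 stands highest for Hes1 in its group at 3.57 CPM.

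Id3 showed the clearest separation within the ID family. Its gene, ENSMUSG00000007872, spans 135870808 to 135872703 on the plus strand of chromosome 4 (GRCm39, as for all gene positions given). With TGF-β1 alone its level ran from 73.1 CPM over a median of 81.9 to 90.0 CPM. With hemin replicates 2 to 6 held 42.9, 44.1, 49.2, 49.7 and 42.3 CPM, so the highest hemin library lay well below the lowest control. The log2 fold change was -0.84 (SE 0.07, interval -0.99 to -0.70), a 1.79-fold lower level.

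Id1, the most abundant of the family, was lower by a smaller step. Its gene, ENSMUSG00000042745, spans 152578171 to 152579330 on the plus strand of chromosome 2. Libraries with TGF-β1 alone ran from 154 over a median of 162 to 187 CPM, and hemin replicates 2 to 6 held 130, 144, 138, 122 and 133 CPM. No hemin library reached the lowest control, but the gap between them was smaller than the SD of the controls. The log2 fold change was -0.33 (SE 0.06, interval -0.46 to -0.19), a 1.25-fold lower level.

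Id2 (ENSMUSG00000020644, chromosome 12, 25143798 to 25147139, minus strand), known in blood lineages for its part in innate lymphoid and dendritic cell development, had the same mean in both groups. Its level ran from 187 over a median of 207 to 221 CPM with TGF-β1 alone, and hemin replicates 2 to 6 held 187, 184, 254, 195 and 197 CPM. Hemin replicate 4 was the highest of all libraries, and replicates 2 and 3 were the lowest. A log2 fold change of -0.0034 (SE 0.08, interval -0.17 to 0.16) leaves a change of either sign within that interval possible. On FPKM as deposited the means were 80.6 ± 4.94 and 74.5 ± 9.16.

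These steps changed the make-up of the family within a library. Summed over Id1 to Id3, levels were 453 ± 30.1 CPM with TGF-β1 alone and 382 ± 33.5 CPM with hemin. These ranges overlapped, at 416 to 485 and 360 to 442 CPM, through hemin replicate 4, where Id2 was highest. Summed FPKM over Id1 to Id4, as deposited and without TMM normalization, was 249 to 280 and 189 to 218 FPKM and did not overlap. Id3 made up 16.1 to 17.1% of the summed FPKM with TGF-β1 alone and 10.8 to 13.1% with hemin. The share of Id2 was 30.6 ± 1.77% and 37.1 ± 2.88%, with ranges of 28.7 to 33.9% and 33.6 to 41.5% that overlap at their ends. Id1 made up 52.7 ± 1.62% and 51.5 ± 3.07%. Id4, the fourth family member, was listed at 0 in 9 of 11 libraries.

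The sequences before the starts of Id3, which separated the groups, and its paralog Id2, which did not, are shown to compare their promoters. They are the 250 bases upstream of each RefSeq start, in the RefSeq table's build GRCm38.p6 and not that of the deposited coordinates, and 4 of the 9 genes matched that table. Capitals mark matches on either strand to the SMAD box GTCT, the SMAD element GGCGCC, the RBPJ core TGGGAA, the antioxidant response core TGACNNNGC, the AP-1 element TGANTCA and the box CCAAT.
Id3, GRCm38.p6, chr4:136143572-136143821, plus strand: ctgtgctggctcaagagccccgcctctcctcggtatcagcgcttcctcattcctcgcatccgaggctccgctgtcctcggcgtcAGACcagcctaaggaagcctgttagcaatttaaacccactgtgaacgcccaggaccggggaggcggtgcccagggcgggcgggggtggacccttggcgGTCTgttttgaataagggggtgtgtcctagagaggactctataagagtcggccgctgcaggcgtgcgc
Id2, GRCm38.p6, chr12:25096093-25096342, minus strand: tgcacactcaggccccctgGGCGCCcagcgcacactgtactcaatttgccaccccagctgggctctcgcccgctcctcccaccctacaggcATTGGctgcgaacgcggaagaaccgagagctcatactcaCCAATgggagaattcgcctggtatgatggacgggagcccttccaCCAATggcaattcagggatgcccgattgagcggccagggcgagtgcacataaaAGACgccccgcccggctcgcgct

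Within these windows Id3 held GTCT 2 times, starting 68 and 166 bases before the start, and none of the other motifs. Id2 held GTCT 23 bases before the start, GGCGCC at 231 and CCAAT at 76, 120 and 159. Of 32851 promoters of the same length 82.9% hold GTCT, 9.59% GGCGCC, 33.8% CCAAT, 21.6% TGGGAA, 10.2% TGACNNNGC and 6.75% TGANTCA. A match is a description of the letters and not a bound site.

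Bmp2 (ENSMUSG00000027358, chromosome 2, 133394079 to 133404805, plus strand), which encodes a ligand upstream of the ID genes, was low and lower still with hemin. Controls ran from 2.097 over a median of 2.75 to 3.07 CPM, or 156 to 219 counts. Hemin replicates 2 to 6 held 1.51, 1.44, 0.874, 1.09 and 1.43 CPM, or 60 to 133 counts. Every hemin library lay below every control, and TGF-β1 replicate 5 was the lowest control. On the log2 scale the difference was -1.09 (SE 0.19, interval -1.50 to -0.68), a 2.13-fold lower level.

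Bambi (ENSMUSG00000024232) had overlapping groups. Controls ran from 15.6 over a median of 16.9 to 18.9 CPM, and hemin replicates 2 to 6 held 16.6, 13.0, 15.5, 17.1 and 13.2 CPM. Hemin replicates 3, 4 and 6 lay below all controls and replicates 2 and 5 lay among them. On the log2 scale the difference was -0.18 (SE 0.09, interval -0.37 to 0.0050). Whether it passed the threshold depended on the scaling: on log2(FPKM + 1) without further scaling, limma gave -0.22 and placed it past the threshold.

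Other genes of the ID and BMP pathways came from lists of textbook members, without the 9 genes. The lists were drawn up with earlier results of these data known, which limits their p-values. Of 53 tested, 4 rose and 13 fell (edgeR quasi-likelihood test, adjusted p under 0.05), where 14.2% of all tested genes passed. Their median log2 fold change was -0.20, beside -0.0025 for all tested genes. Among 9 tested partners of ID proteins 3 fell: Tcf4, an E protein gene, from 48.8 ± 1.85 to 35.9 ± 2.72 CPM (log2 fold change -0.44, edgeR adjusted p = 4.98e-05), Tal1, a blood lineage factor gene, from 15.3 ± 1.54 to 10.5 ± 2.12 CPM (-0.55, edgeR adjusted p = 0.00561), and the E protein gene Tcf3. Tcf12, the remaining E protein gene, stood at 60.7 ± 3.03 and 61.8 ± 1.92 CPM.

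Of 15 tested receptors and SMADs of the BMP branch, 2 rose and 3 fell, where 8.43% of all tested genes rose and 5.75% fell. Acvrl1, which encodes the type I receptor ALK1, rose from 48.6 ± 2.47 to 62.8 ± 2.68 CPM (edgeR adjusted p = 6.71e-05). Eng, which encodes the ALK1 partner endoglin, rose from 61.9 ± 3.77 to 78.3 ± 9.23 CPM, although hemin replicate 2 lay among the controls (edgeR adjusted p = 0.00328). The type II receptor gene Bmpr2 fell from 67.9 ± 4.01 to 55.3 ± 4.03 CPM and the signal carrier gene Smad1 from 19.97 ± 1.57 to 15.2 ± 1.43 CPM (edgeR adjusted p = 0.00191 and 0.00306). None of 4 tested BMP ligand genes passed in edgeR, at an unadjusted p under 0.05 the count was also 0, and DESeq2 called 0. Gdf3, the most abundant of them in FPKM (4.44 ± 0.205 and 4.09 ± 0.264), stood at 11.2 ± 0.418 and 11.1 ± 0.801 CPM.

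Inhibitors of BMP and TGF-β signalling fell in 6 of 19 cases and rose in 1, where 5.75% of all tested genes fell and 8.43% rose. Smad7, which encodes an inhibitory SMAD that TGF-β and BMP both induce, ran from 19.6 over 21.6 to 24.2 CPM with TGF-β1 alone and held 13.3, 13.7, 13.1, 12.2 and 13.2 CPM in hemin replicates 2 to 6. Its log2 fold change was -0.74 (SE 0.07, edgeR adjusted p = 3.54e-06). Smad6, the inhibitory SMAD gene tied more to BMP, fell less, from 50.2 ± 5.69 to 40.4 ± 3.28 CPM (-0.31, edgeR adjusted p = 0.0112). Its call was lost in edgeR with the replicate number as a block. Pmepa1, a feedback inhibitor gene of TGF-β signalling, fell by 0.88 on the log2 scale. The largest fall in the list was that of Fst, which encodes the activin and BMP trap follistatin, and which is named after its values were seen because its mean lay under 1 FPKM. It went from 6.16 ± 0.573 to 1.79 ± 0.305 CPM, 3.44-fold lower (edgeR adjusted p = 2.63e-07). The member that rose was Fkbp1a, the gene of a receptor-silencing binding protein (log2 fold change 0.20).

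Targets of BMP signalling besides the ID genes included Smad6 and Smad7 again, and 3 of 9 tested fell while 1 rose. Over all tested genes 14.2% passed in either direction. Prdm1, which encodes the repressor BLIMP1, rose from 7.85 ± 1.31 to 10.8 ± 1.30 CPM (edgeR adjusted p = 0.0148), with TGF-β1 replicate 5 among the hemin libraries. Its call was lost on log2(FPKM + 1) without further scaling (limma adjusted p = 0.0793). Runx2, a bone lineage factor gene, fell by 0.35 on the log2 scale.

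The Notch receptors parted from each other. Notch1 (ENSMUSG00000026923, chromosome 2, 26347915 to 26406675, minus strand) ran from 87.1 over a median of 96.0 to 131 CPM with TGF-β1 alone. Hemin replicates 2 to 6 held 174, 207, 159, 168 and 184 CPM, all above the highest control. TGF-β1 replicates 4 and 5 stood above the other controls. On the log2 scale the difference was 0.77 (SE 0.10, interval 0.56 to 0.98), a 1.71-fold higher level.

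Notch2 (ENSMUSG00000027878, chromosome 3, 97920843 to 98057677, plus strand) ran from 37.5 over a median of 42.8 to 54.4 CPM with TGF-β1 alone. Hemin replicates 2 to 6 held 41.7, 68.6, 44.0, 40.2 and 45.6 CPM. Hemin replicate 3 was above all other libraries, and the remaining 4 lay within the control range. The log2 fold change was 0.13 (SE 0.13, interval -0.15 to 0.40), and without hemin replicate 3 it was -0.04. Within a library the FPKM of Notch1 over that of Notch2 was 1.56 to 1.94 with TGF-β1 alone and 2.29 to 3.18 with hemin, with means of 1.80 ± 0.142 and 2.88 ± 0.373. Hemin replicate 3 had the lowest ratio of its group.

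**Figure D2:**
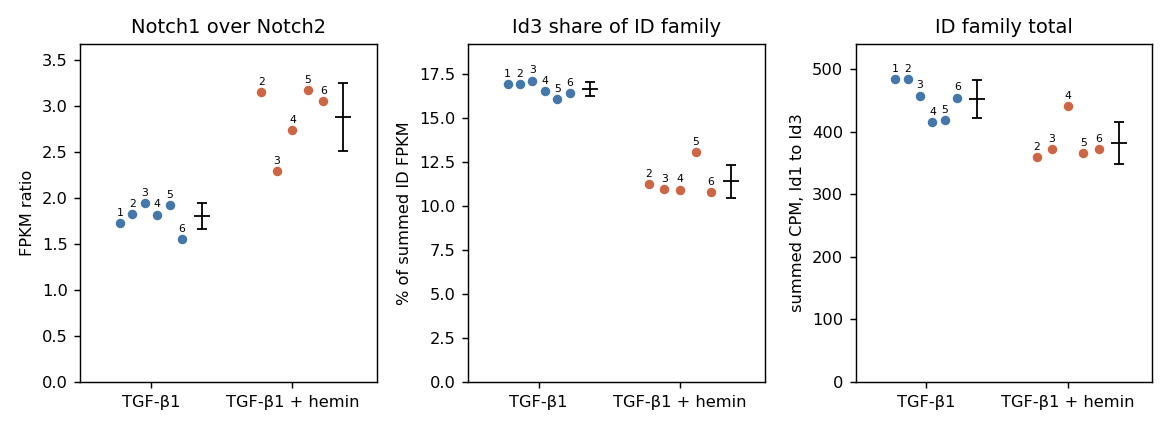
Left, ratio of Notch1 to Notch2 FPKM in each library. Middle, Id3 as a percentage of the summed FPKM of Id1 to Id4, and right, the summed CPM of Id1 to Id3. Blue is TGF-β1 alone, orange TGF-β1 with hemin, digits are replicate numbers and black bars are mean ± SD. Ratios of 1.56 to 1.94 against 2.29 to 3.18 and shares of 16.1 to 17.1% against 10.8 to 13.1% separate the groups, while sums of 416 to 485 against 360 to 442 CPM overlap through hemin replicate 4.

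The upstream sequences of Notch1 and Notch2 are shown because 1 receptor gene separated the groups and the other did not. Source, window, build and capitals are as for the ID genes.
Notch1, GRCm38.p6, chr2:26503823-26504072, minus strand: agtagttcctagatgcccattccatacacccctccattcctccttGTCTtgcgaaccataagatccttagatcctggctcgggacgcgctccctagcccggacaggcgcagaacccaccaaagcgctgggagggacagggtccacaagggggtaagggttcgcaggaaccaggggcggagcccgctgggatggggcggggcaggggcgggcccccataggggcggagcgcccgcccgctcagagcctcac
Notch2, GRCm38.p6, chr3:98013288-98013537, plus strand: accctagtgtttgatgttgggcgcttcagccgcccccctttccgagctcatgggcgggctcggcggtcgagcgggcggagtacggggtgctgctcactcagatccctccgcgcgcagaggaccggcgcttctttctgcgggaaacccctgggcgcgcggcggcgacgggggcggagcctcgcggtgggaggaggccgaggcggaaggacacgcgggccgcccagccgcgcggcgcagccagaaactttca

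Notch1 held a GTCT 205 bases before its start and none of the other 5 motifs, and Notch2 held none of the 6.

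Hes1 (ENSMUSG00000022528, chromosome 16, 29883202 to 29886614, plus strand), the best known Notch target and a repressor that also answers to other signals, had the largest difference of the 9 genes. With TGF-β1 alone it ran from 4.48 over a median of 5.12 to 5.66 CPM, or 299 to 396 counts. Hemin replicates 2 to 6 held 3.57, 0.490, 1.66, 0.904 and 1.68 CPM, from 35 to 229 counts. Every hemin library was below every control, but the hemin libraries differed among themselves by far more than the controls did. Their coefficient of variation was 71.1%, against 9.50% in the controls, where counting alone would give 9.00% and 5.29%. The log2 fold change was -1.61 (SE 0.35, interval -2.35 to -0.87), 3.05-fold lower. Leaving out 1 library moved it between -2.09 (without hemin replicate 2) and -1.38 (without hemin replicate 3). Hemin replicate 3, the lowest for Hes1, was the highest for both Notch receptor genes.

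Hey1 (ENSMUSG00000040289, chromosome 3, 8728419 to 8732316, minus strand), a related repressor gene best known from vessels and heart, was near the limit of these libraries at 51 to 123 counts with TGF-β1 alone and 56 to 103 with hemin. Controls ran from 0.697 over a median of 1.04 to 1.77 CPM, and hemin replicates 2 to 6 held 0.873, 1.08, 1.05, 0.849 and 1.11 CPM, all within the control range. TGF-β1 replicate 6 was the highest. It also had the highest summed fibroblast markers, 96.0 FPKM, and the highest summed macrophage markers, 7867 FPKM. Among the controls it was highest too for dendritic, osteoclast and lymphoid markers, but not for proximal tubule, endothelial or neutrophil and progenitor markers. The part of any of these cells in the level of Hey1 was not tested. On the log2 scale the difference was -0.15 (SE 0.27, interval -0.72 to 0.42), which leaves room for a change in either direction.

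Further genes of the Notch pathway were tested from lists of textbook members. These lists too were drawn up with earlier results of these data known, which limits their p-values. Of 69 tested, 7 rose and 16 fell (edgeR adjusted p under 0.05), where 14.2% of all tested genes passed, and the median log2 fold change was -0.08 beside -0.0025 for all. On log2(FPKM + 1) without further scaling limma called 2 higher and 23 lower.

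Among ligands and receptors, Jag1 rose and Notch4 fell. Jag1 (chromosome 2, 136923376 to 136958564, minus strand), which encodes the ligand Jagged1, ran from 9.52 over 12.3 to 15.1 CPM with TGF-β1 alone and held 34.5, 34.5, 31.1, 26.2 and 38.1 CPM in hemin replicates 2 to 6. Its lowest hemin library exceeded its highest control, with a log2 fold change of 1.42 (SE 0.12, a 2.67-fold rise, edgeR adjusted p = 5.75e-07). Notch4, a receptor gene known mainly from endothelium, fell from 25.0 ± 5.04 to 15.4 ± 2.44 CPM (log2 fold change -0.70, edgeR adjusted p = 0.00244), with hemin replicate 3 just above the lowest control. Endothelial markers did not pass a group difference in mean log2(FPKM + 1), 0.432 and 0.385, by exact permutation test (adjusted p = 0.165), but did at a pseudocount of 0.1 (difference -0.22, exact permutation adjusted p = 0.0346). Tek, Tie1, Emcn and Sox17 of that list averaged under 0.1 FPKM. Only Vwf averaged at least 1 FPKM, at 2.89 ± 0.645 with TGF-β1 alone and 2.99 ± 0.410 with hemin. The other tested markers, Pecam1, Cdh5, Kdr and Tie1, had lower means with hemin. The part of endothelial cells in the level of Notch4 was not tested.

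Genes that process or modify Notch proteins rose in 5 and fell in 7 of 29 cases, where 8.43% of all tested genes rose and 5.75% fell. Lfng, which encodes the Fringe glycosyltransferase that alters which ligands a receptor answers to, ran from 136 over 140.2 to 152 CPM with TGF-β1 alone and held 101, 111, 96.2, 108 and 94.6 CPM in hemin replicates 2 to 6 (log2 fold change -0.47, edgeR adjusted p = 8.36e-06). Dtx4, a ubiquitin ligase gene of the Deltex family, fell from 225 ± 16.1 to 168 ± 6.05 CPM (-0.42, edgeR adjusted p = 3.21e-05). Subunit genes of γ-secretase, the enzyme that frees the intracellular part, rose in 2 cases. Psen2, a catalytic subunit gene, went from 53.9 ± 6.05 to 80.8 ± 3.97 CPM (0.58, edgeR adjusted p = 2.59e-05). Aph1c went from 16.5 ± 1.02 to 21.3 ± 2.74 CPM (0.37, edgeR adjusted p = 0.00759), a call lost on log2(FPKM + 1) without further scaling (limma adjusted p = 0.0665).

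Nuclear partners and corepressors fell in 5 of 25 cases, where 5.75% of all tested genes fell and 14.2% passed in either direction. The falls were 0.16 to 0.31 on the log2 scale. The genes that fell included Tle1, a Groucho corepressor gene (edgeR adjusted p = 0.00214), and Kdm5a, a histone demethylase gene (edgeR adjusted p = 0.00508). Rbpj itself stood at 355 ± 23.4 and 335 ± 20.3 CPM, with a log2 fold change of -0.08 (SE 0.05). Of 11 tested Notch targets besides Hes1 and Hey1, 3 fell and 1 rose, beside the same 14.2% of all tested genes. Bhlhe40 and Bhlhe41, which encode closely related repressors, went opposite ways, from 175 ± 7.62 to 141 ± 3.21 CPM and from 100.4 ± 9.29 to 125 ± 10.8 CPM (-0.31 and 0.32 on the log2 scale, adjusted p = 6.22e-05 and 0.00476 in edgeR), though the rise of Bhlhe41 did not pass on log2(FPKM + 1) without further scaling (limma adjusted p = 0.109). The cyclin D1 gene Ccnd1 fell by 0.31 on the log2 scale. Nrarp, a feedback inhibitor gene induced by Notch in many tissues, was barely detected at 0.243 ± 0.217 and 0.191 ± 0.169 CPM.

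**Figure D3:**
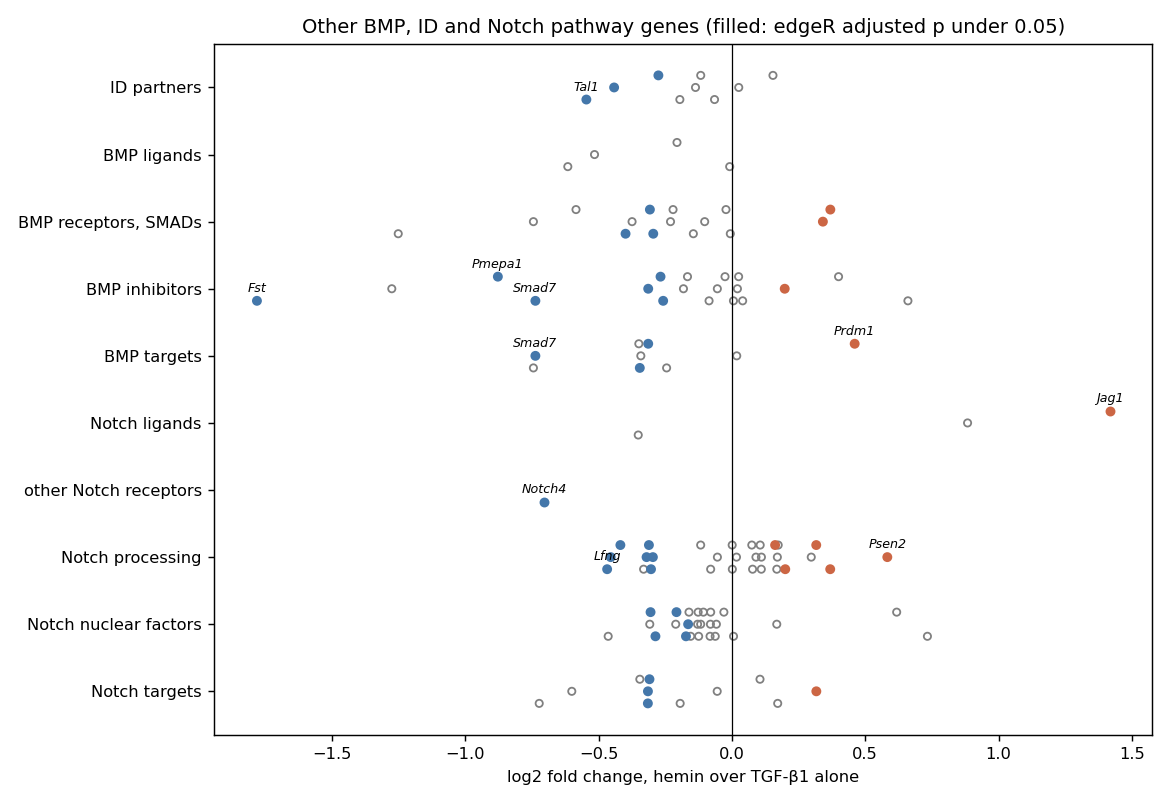
Log2 fold change of each tested gene, hemin over TGF-β1 alone (x axis), by list (y axis; small vertical steps only separate points). Filled points passed the edgeR test at an adjusted p under 0.05, orange higher and blue lower, open points did not, and genes past 0.46 in size that passed are named. Jag1 at 1.42 and Fst at -1.78 lie farthest out among the genes that passed.

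Within groups some of the 9 genes, chiefly Notch1 and Id3, varied with a measure of transcript length. For each library a score was taken as the median log2 deviation of the longest 10% of tested genes (1513) minus that of the shortest 10%, without the 9 genes. It ran from -0.07 to 0.17 with TGF-β1 alone, highest in replicates 4 and 5, and from -0.12 to 0.06 with hemin, highest in replicate 3. Notch1 and Notch2 lie at the 97.3rd and 93.2nd percentile of length, Id1, Id3 and Id2 at the 10.9th, 18.8th and 27.9th. After subtracting group means over the 11 libraries, Notch1 followed the score with a Pearson r of 0.91 (Spearman rho 0.81) and Id3 ran against it with an r of -0.84 (rho -0.79), as a description. Notch2 and Id2 had r of 0.68 and -0.66, and the other 5 genes lay between -0.36 and 0.18, Id1, the shortest, at -0.29. In the same way Notch1 and Notch2 varied together (r = 0.80, rho 0.56) and Notch1 and Id3 oppositely (r = -0.78, rho -0.76). Libraries shared both the normalization and the score.

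Median log2 fold changes were also taken over 10 length classes of the tested genes. They were -0.0034 in the shortest class, 0.04 in the second, which holds Id1 and Id3, and -0.08 in the longest, which holds both Notch genes. With the score as a covariate in edgeR the log2 fold change was 0.91 for Notch1, 0.25 for Notch2, -0.91 for Id3, -0.35 for Id1 and -0.07 for Id2. For Hes1 it was -1.65 and for Bmp2 -1.05. The same number of the 9 genes, 5, passed, as did 1980 of all 15132 tested genes. Since the 9 were chosen with this contrast known, this is a description. In the Notch pathway lists this fit called 7 higher and 12 lower.

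**Figure D4:**
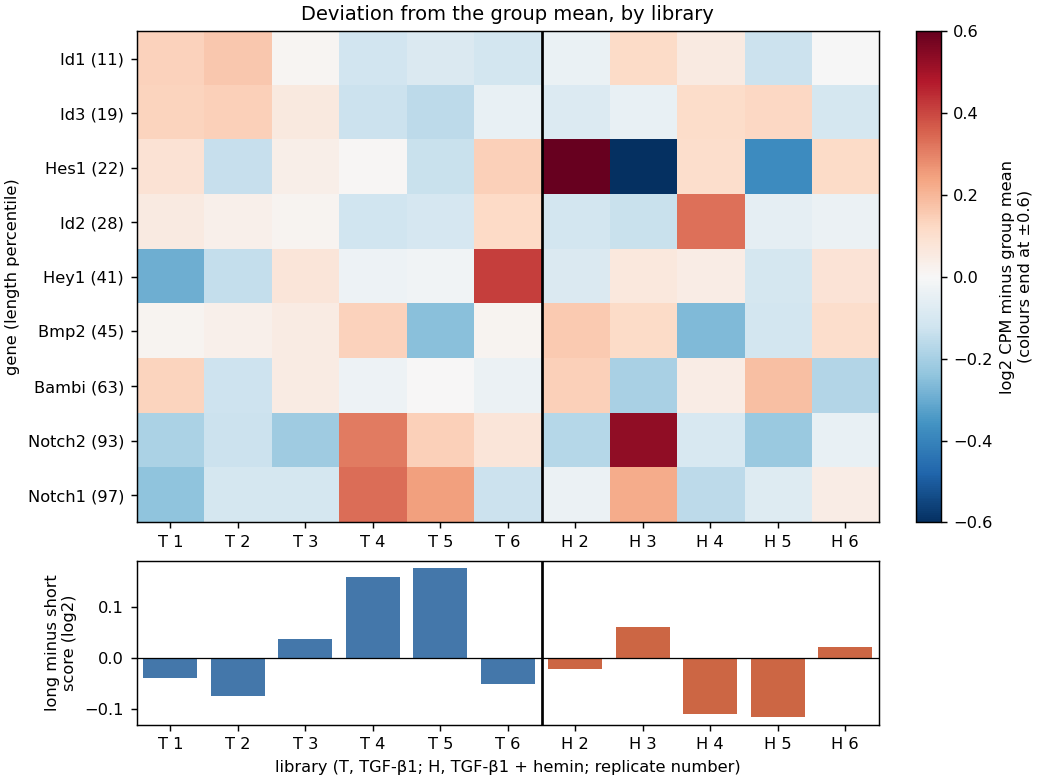
Top, log2 CPM minus the group mean for each gene (rows, ordered by length percentile in brackets) in each library (columns, T for TGF-β1 alone and H for TGF-β1 with hemin, with the replicate number). Red is above and blue below the group mean, and colours end at 0.6 either way. Bottom, the long minus short score of each library on the log2 scale. TGF-β1 replicates 4 and 5, with the highest scores, are red for both Notch genes and blue for all 3 ID genes.

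The genes most like each of the 9 in their variation within groups were sought among 9417 tested genes of at least 1 FPKM, by Pearson r over 11 libraries after subtracting group means. For Notch1 they were Dync1h1 (r = 0.98) and Ubr4 (0.96), at the 98.0th and 99.0th percentile of length. For Notch2 they were Adam8 (0.955) and Garre1 (0.93), at the 58.5th and 85.6th. Id3 was matched by Rack1 and Hcls1 (both 0.97), Id2 by Prdx1 (0.945) and Pcna (0.925), and Id1 by Cmpk1 and Timm23 (both 0.92). In that order these matches lay at the 63.6th, 29.1st, 37.1st, 27.2nd, 42.5th and 18.8th percentile of length. Bmp2 was nearest to Dclre1b (0.88) and Dyrk3 (0.87), Bambi to Sugt1 and Ska1 (both 0.87), Hes1 to Terf2ip and Asb6 (both 0.87) and Hey1 to Lyz2 and Pex5 (both 0.91). These are the highest of 9417 values over few libraries, and the match of Hey1 and Pex5 had a Spearman rho of 0.55.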

How the data were processed

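RNA was measured in 11 libraries. Per the labels' protocols, RNA was extracted with TRIzol, selected for polyadenylated RNA and copied with a uracil-marked second strand. Per the submitters' processing notes the tools included HISAT2 2.2.1 and StringTie 2.1.6, with cutadapt 1.9, FastQC 0.11.9, DESeq2 and build GRCm39, without role or order. The deposited counts are whole numbers per gene, not normalized, and the FPKM values were calculated by the authors. No source used here gives the counter or strand setting. The genes that overlap Notch1 or Notch2 in the deposited coordinates averaged under 6 counts, and the other 7 genes overlap none.

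The 9 genes and the lists were chosen with earlier results of these data known. Groups follow the title prefix, read with the design text. In R 4.3.3, edgeR 4.0.16 (filterByExpr, minimum count 10 and total 15, TMM, quasi-likelihood test with no term but group) tested 15132 genes with Benjamini-Hochberg adjustment, 2-sided. SE is the log2 fold change over the square root of F, so SE and interval assume its size. The ratio of deposited count to FPKM gave each gene's relative length. Per list, genes of at least 1 FPKM with the smallest adjusted p are named (at most 2 that rose and 2 that fell), or the most abundant member where none passed. Others were named after their values were seen. Marker lists were compared by exact permutation tests, adjusted over 8 lists. No library repeats another of its group: their chi-square per degree of freedom was 25.4 to 172. The fit was tested on simulated data. Alternatives were DESeq2 1.42.0, its size factors, other filters, a replicate block, limma 3.58.1 on log2(FPKM + 1) or log2(FPKM + 0.1), and each library left out. The fit with the length score was added after seeing the data.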

Additional observations from a re-analysis of the deposited data

Results flagged for a closer look

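In 18 groups of values (9 genes in each treatment) the gap of the extreme library to its nearest neighbour, over the range of the group, passed Dixon's 95% limit in 3, where chance gives about 1 in 20. Id2 in hemin replicate 4 was at 254.1 CPM against 184 to 197 CPM in the other hemin libraries. Notch2 in hemin replicate 3 was at 68.6 CPM against 40.2 to 45.6 CPM. Bmp2 in TGF-β1 replicate 5 was at 2.097 CPM against 2.73 to 3.07 CPM in the other controls.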

How the results depend on the processing

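With each library left out in turn, 5 of the 9 genes passed in every case. Since the 9 were chosen with this contrast known, that count is a description and does not measure robustness. Among all genes tested in each fit 1704 to 2169 changed. In the Notch pathway the range was 17 to 26, and in the BMP and ID pathways 15 to 18. Under the other settings these numbers ran from 1532 to 2895, from 17 to 28 and from 12 to 22, over differing numbers of tested genes. With genes of at least 5 FPKM, 1613 of 6006 passed, 20 of 40 in the Notch pathway and 12 of 18 in the BMP and ID pathways. That filter leaves 4 of the 9 genes, of which 3 passed. The 14.2% set beside the lists was over all tested genes and was not matched for level. Bambi alone among the 9 changed its side of the threshold, on log2(FPKM + 1) and log2(FPKM + 0.1) (-0.22 and -0.29). At a pseudocount of 0.1 the differences of endothelial markers (-0.22) and osteoclast markers (0.19) passed, and the latter also did without hemin replicate 3, with a range of 0.10 to 0.15 over libraries left out. With the replicate number as a block, edgeR called 1532 genes, 17 of the Notch pathway, 15 of the BMP and ID pathways and 5 of the 9. Smad6 lost its call (-0.29, adjusted p = 0.0808). Same-numbered libraries deviated together with correlations of -0.15 to 0.14, and 1 of 5 hemin libraries was closest to its own number. These values show no pairing by number, but the labels do not say whether same-numbered libraries shared an animal or a culture. The lowest counts of the 9 genes were those of Hes1, Hey1 and Bmp2, with as few as 35, 51 and 60, and the spread of Hes1 with hemin (71.1%) exceeded what counting gives (9.00%). The causes were not tested.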
